A study of Hordeum vulgare with 18 samples.

Results

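The genes described here rose in the barley (Hordeum vulgare) flag leaf between 7 and 14 days post anthesis in both lines of the study and then changed less between 14 and 21 days. The flag leaf is the uppermost leaf of a cereal shoot and a main source of carbon and nitrogen for the filling grain. As it senesces, chloroplast proteins and chlorophyll are broken down, and the released nitrogen is exported to the grain. Genes that rise early and then hold their level are of interest because the visible yellowing of the leaf comes later. Whether the genes described here belong to this programme was not tested.

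RNA was measured by MARS-seq, a 3' tag method, in samples of at least 10 pooled flag leaves from glasshouse plants. One line was the cultivar Karl. The other, 10_11, is a near-isogenic relative of Karl selected for a grain protein locus on chromosome 6. All plants had the same fertilizer and potassium nitrate supply until anthesis, and each line was sampled at 7, 14 and 21 days post anthesis (7 d, 14 d and 21 d), with 3 libraries for each line and day from independently harvested samples. 10_11 is 1 line, so a difference from Karl is a difference between these lines and not between alleles of 1 locus. In each sample a level is relative to the other RNA counted from the pooled leaves, so a rise need not be a rise in RNA per leaf. Fewer cells of a type and less RNA per cell cannot be told apart either.

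Members were chosen from the counts as normalized by the authors, without the library labelled 10_11 14 d C. For each gene the change from 7 d to 14 d and the change from 14 d to 21 d were taken in each line as differences of log2(group mean + 5). The score was the smaller of the 2 early changes minus the larger absolute value of the 2 later ones, and the 100 genes with the highest score were taken from 7152 genes that had a group mean of 20 normalized counts or more. The table holds 13626 genes, and 474 had a score above 0. The early and the late changes of both lines therefore chose the members and are given below as a description, with no test. Scores ran from 0.38 to 3.36. Just inside the limit were HORVU1Hr1G024140, HORVU2Hr1G081370, HORVU3Hr1G060500, HORVU7Hr1G049190 and HORVU2Hr1G029900, with scores of 0.380, 0.379, 0.378, 0.378 and 0.377. Just outside were HORVU7Hr1G012820, HORVU6Hr1G037760, HORVU7Hr1G037070, HORVU3Hr1G006930 and HORVU1Hr1G062650, with 0.377, 0.373, 0.372, 0.371 and 0.363. The limit thus separates genes of nearly equal score. Of the 100 identifiers none is paired with a name in the sources used here, so no function is given, and the leaf label was not checked against leaf marker genes.

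The libraries of 7 d stand apart in ways that bear directly on this set. They held 353982 to 947762 counts, against 1058777 to 3231258 at 14 d and 21 d, and their labels number replicates by digits rather than letters and carry a different block of well-like codes. The authors' normalized counts summed to 1351177 to 1591801 per library at 7 d and to 1042191 to 1230682 at the later days. A rise between 7 d and 14 d with little change afterwards follows this division of the libraries, so for these genes leaf age and a difference between the 2 sets of libraries cannot be told apart. With counts scaled by library totals alone the median rise of the members was larger, 1.34 in Karl and 1.29 in 10_11 on the log2 scale in place of 0.99 and 1.04. One library of 14 d went against its label. At 67 genes called between the lines in the libraries of 7 d and 21 d alone, the library labelled 10_11 14 d C had a median position of 0.0625 on a scale from Karl (0) to 10_11 (1), where 10_11 14 d A and B had 0.985 and 0.981 and the Karl libraries of 14 d -0.0605 to 0.00121. It is left out of all group values below unless it is named.

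The 100 genes together took a larger share of the library at 14 d and 21 d than at 7 d. In Karl their normalized counts summed to 7662, 4490 and 8520 at 7 d, to 17414, 19372 and 18805 at 14 d and to 19745, 18009 and 17780 at 21 d. In 10_11 the sums were 7280, 6047 and 4369 at 7 d, 13662 and 16662 at 14 d, and 18478, 13817 and 15256 at 21 d. No library of 7 d reached the lowest later library, and the libraries of 14 d and 21 d overlapped in each line. As a share of all counts of a library, Karl had 0.455% ± 0.111 on day 7, 1.66% ± 0.0663 on day 14 and 1.70% ± 0.162 on day 21 (SD, n = 3). The share in 10_11 was 0.389% ± 0.0855 at 7 d (SD, n = 3), 1.25% ± 0.140 at 14 d (SD, n = 2) and 1.40% ± 0.217 at 21 d (SD, n = 3).

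**Figure D1:**
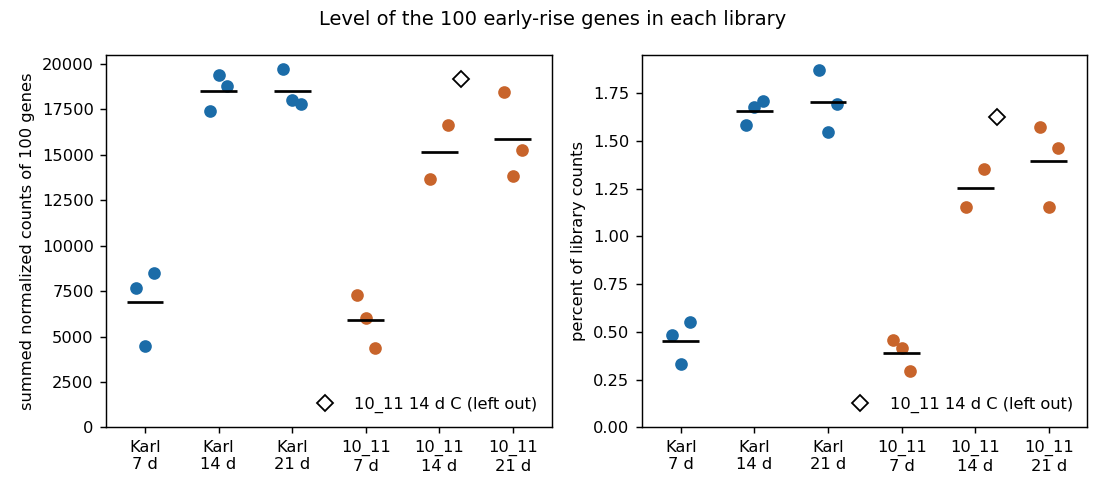
Summed normalized counts of the 100 genes (left) and their percent of all counts of the library (right), with 1 point per library, bars for group means and an open diamond for the library labelled 10_11 14 d C, which the rule left out. The 6 libraries of 7 d lie between 4369 and 8520 and the 11 later ones used by the rule between 13662 and 19745.

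The size of the early change varied widely among members, while most later changes were small. The median change from 7 d to 14 d was 0.99 in Karl, with a range of 0.51 to 4.90, and 1.04 in 10_11, with a range of 0.43 to 6.48, on the log2 scale with a pseudocount of 5. Over all 7152 eligible genes the medians were -0.02 and -0.01. Of the members 39 rose by at least 1 on this scale in both lines, against 103 of all eligible genes. The change was larger in Karl for 52 members and larger in 10_11 for 48. From 14 d to 21 d the median change was -0.03 in Karl and 0.11 in 10_11. The change was at most 0.5 in absolute value for 88 members in Karl and for 82 in 10_11. Among the 7152 eligible genes this held for 5752 and 3896. Small later changes were favoured by the rule. The sign of this later change was not used by the rule, although the 14 d means behind it were. In Karl 47 members were higher at 21 d than at 14 d (47.0%, against 52.0% of eligible genes), and in 10_11 70 were (70.0%, against 54.8%). Between the lines 37 were higher at 21 d in both, 20 were lower in both and 43 had opposite signs. Most of these changes were at most 0.5 in absolute value, near the members' median pooled within-group SD of 0.42 on the log2 scale. Their signs alone do not show whether the set is uniform after 14 d. HORVU3Hr1G081280 was higher again at 21 d, by 1.01 in Karl and 1.30 in 10_11, after early changes of 2.01 and 2.42. The means of HORVU7Hr1G118000 fell by 1.81 in Karl and by 0.74 in 10_11, with a pooled SD of 1.40. Its Karl libraries had 202, 11.1 and 328 normalized counts at 14 d and 15.6, 7.56 and 120 at 21 d. In 10_11 it had 23.4 and 110 at 14 d and 71.0, 21.7 and 21.1 at 21 d. Its 14 d and 21 d libraries thus overlapped in both lines. HORVU3Hr1G081280 and HORVU7Hr1G118000 were picked for mention after their values were seen.

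**Figure D2:**
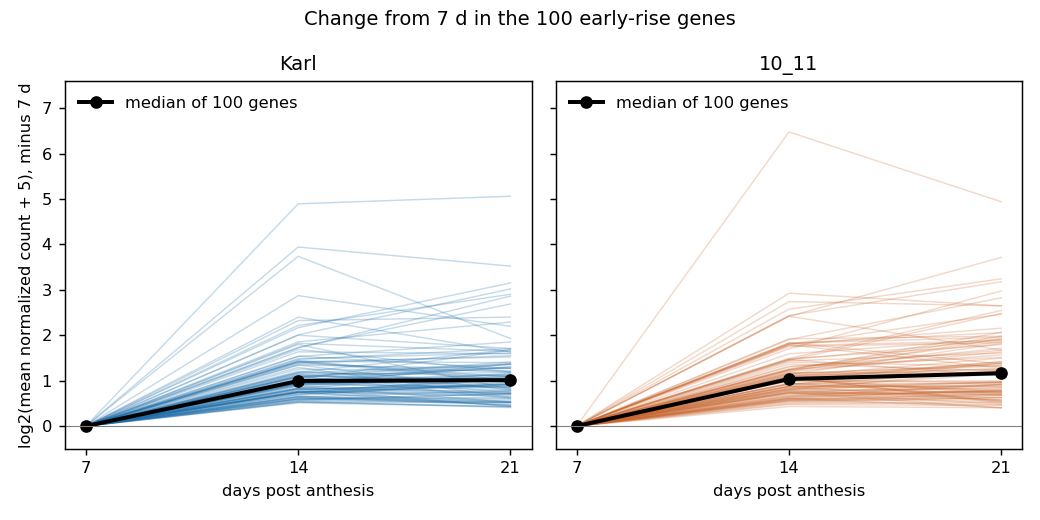
Change of each of the 100 genes from its 7 d value in Karl (left) and 10_11 (right), as log2(mean normalized count + 5) minus the 7 d value, against days post anthesis, with 1 thin line per gene and the median in black. The median reaches 0.99 in Karl and 1.04 in 10_11 at 14 d, and single genes reach 4.90 and 6.48.

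Separation of single libraries was common but not complete. In Karl 82 members had all 14 d libraries above all 7 d libraries, which held for 18.3% of eligible genes, and in 10_11, with 2 libraries at 14 d, 86 did, against 16.8%. Both lines were separated for 71 members, against 6.85% of eligible genes, and 29 overlapped in at least 1 line. At 21 d 53 members had all libraries above those of 7 d in both lines, against 15.6%. For 38 members all 11 libraries of 14 d and 21 d lay above all 6 of 7 d, against 3.43%. These shares follow from the rule and are given as a description. At 7 d the counts behind the values were low. The median member had 3 to 12 counts per library at 7 d and 38 to 105 in the later libraries used by the rule, and in 10_11 7 d replicate 3, the shallowest library, 81 members had fewer than 10 counts and 8 had 0. In 40 members both lines had a mean of 20 normalized counts or more at 7 d, and in 1 a 7 d group held at most 3 counts in all. Even so, 87 members had at least 1 count in each of the 18 libraries, so their transcripts were detected at 7 d as well.

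**Figure D3:**
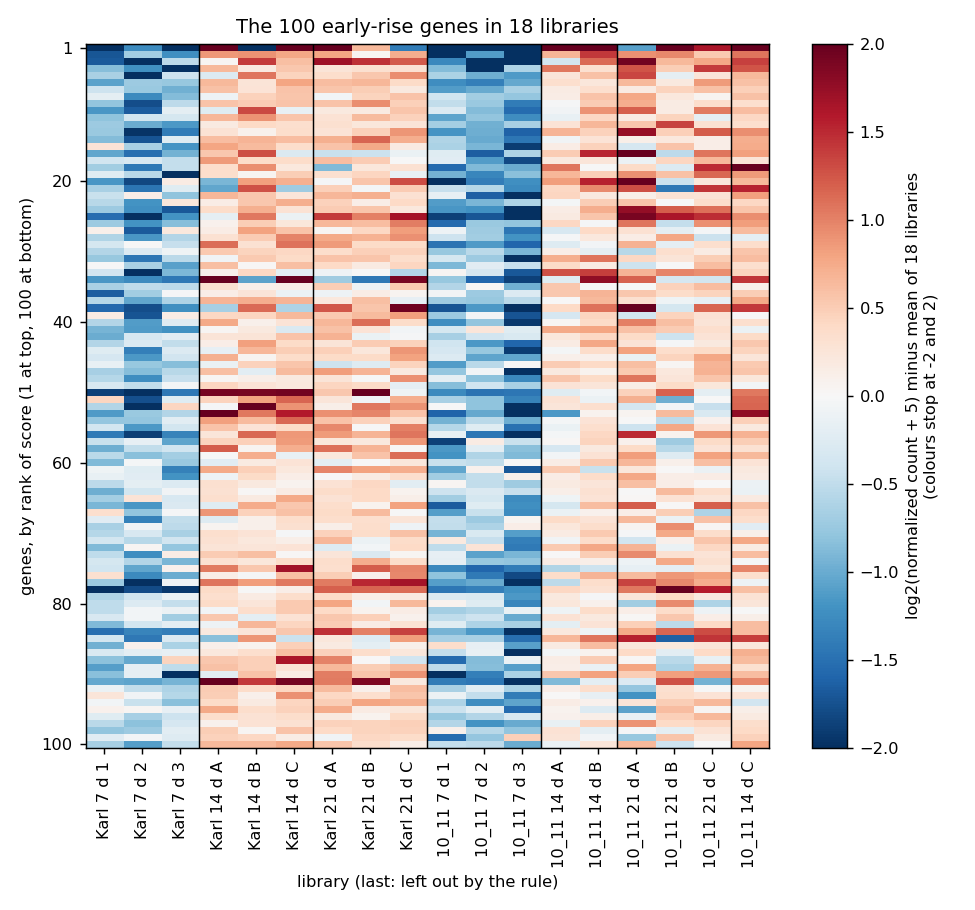
Levels of the 100 genes (rows, by rank of score) in 18 libraries (columns, with black lines between groups), as log2(normalized count + 5) minus the gene's mean over all libraries. The 6 columns of 7 d are mostly blue and the others mostly red, and the last column is the library labelled 10_11 14 d C, in which 88 genes lay above all 6 libraries of 7 d.

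The gene with the highest score was also the least stable. HORVU2Hr1G044800 had 18.5, 104 and 35.8 normalized counts in Karl at 7 d, 3041, 59.7 and 2031 at 14 d and 5268, 404 and 94.1 at 21 d. In 10_11 it had 29.8, 15.4 and 4.20 at 7 d, 2411 and 1410 at 14 d, and 118, 1041 and 805 at 21 d. In Karl the 14 d replicate B lay below the 7 d replicate 2, so the groups overlapped, whereas in 10_11 they did not. Its pooled within-group SD of 2.04 on the log2 scale was the largest among the members, whose median was 0.42. Its rise in Karl, 4.90, thus rests on 2 of 3 libraries of 14 d.

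Next by score came genes with clearer separation. HORVU2Hr1G062160 had 52.1, 110 and 75.4 normalized counts in Karl at 7 d, 338, 345 and 314 at 14 d and 318, 188 and 306 at 21 d. The 10_11 libraries had 39.7, 81.8 and 21.0 at 7 d, 295 and 494 at 14 d, and 349, 359 and 264 at 21 d. Every later library was above every 7 d library in both lines, and the change from 7 d to 14 d was 2.00 in Karl and 2.93 in 10_11. HORVU1Hr1G067070 had 23.5, 4.51 and 58.4 in Karl at 7 d and 89.0, 235 and 133 at 14 d, and in 10_11 it had 32.3, 12.3 and 8.41 and then 65.5 and 195. Its 7 d and 14 d groups did not overlap either. Its means were higher again at 21 d, by 0.69 in Karl and 0.67 in 10_11. The libraries of 21 d had 290, 245 and 208 in Karl and 341, 137 and 151 in 10_11. They overlapped those of 14 d in both lines, and the pooled SD was 0.86. HORVU4Hr1G065100 was low throughout, with 10.08, 6.76 and 0 in Karl at 7 d and 37.4, 26.0 and 34.2 at 14 d, and with 9.93, 1.54 and 12.6 and then 51.6 and 29.0 in 10_11. Its changes were 1.82 and 1.80, nearly equal in the lines.

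HORVU5Hr1G019110 and HORVU2Hr1G031940 had the steadiest values among the 20 highest scores. HORVU5Hr1G019110 had 20.2, 27.0 and 26.4 normalized counts in Karl at 7 d, 78.2, 58.0 and 86.8 at 14 d and 75.7, 79.1 and 63.6 at 21 d. In 10_11 it had 17.4, 15.4 and 21.0 at 7 d, 61.5 and 56.8 at 14 d, and 77.7, 55.7 and 90.3 at 21 d. The 6 libraries of 7 d all lay below the later ones, the early changes were 1.43 and 1.48, and the pooled SD was 0.23. HORVU2Hr1G031940 had 35.3, 27.0 and 22.6 in Karl at 7 d and 75.9, 59.7 and 74.8 at 14 d, and 19.9, 21.6 and 29.4 and then 55.2 and 62.7 in 10_11. It showed the same separation, with changes of 1.17 and 1.16 and a pooled SD of 0.22. HORVU1Hr1G047440, at 8th rank, had the flattest course after 14 d of the 20, with a change of 0.01 in both lines after early changes of 1.04 and 0.99.

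Among the other genes of the 20 highest scores, early changes ran from 0.94 for HORVU3Hr1G085130 to 1.80 for HORVU6Hr1G028150 in Karl and from 1.09 for HORVU5Hr1G109210 to 2.74 for HORVU6Hr1G065710 in 10_11. The early changes of HORVU0Hr1G021480, HORVU3Hr1G021810, HORVU3Hr1G099120, HORVU2Hr1G099270, HORVU2Hr1G015940, HORVU5Hr1G043650, HORVU4Hr1G066270 and HORVU4Hr1G001170 lay within these ranges. In Karl 17 of the 20 had all 14 d libraries above all 7 d libraries, against 18.3% of eligible genes. In 10_11 all 20 did, against 16.8%. The score that ranked these 20 uses the same changes, so the 2 counts are a description. HORVU6Hr1G028150 changed in opposite directions after 14 d, by -0.98 in Karl and 0.13 in 10_11. In 10_11 at 21 d it had 82.1, 9.29 and 38.4 normalized counts, a spread that covers its 14 d values of 24.1 and 54.1.

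The most abundant members had the largest weight in the sums above. HORVU3Hr1G116790 had 3037, 888 and 3298 normalized counts in Karl at 7 d, 3154, 4977 and 4209 at 14 d and 2932, 3807 and 5070 at 21 d. Values in 10_11 were 2635, 1740 and 1039 at 7 d, 2281 and 3755 at 14 d, and 3503, 2487 and 2768 at 21 d. Its 7 d and 14 d libraries overlapped in both lines, and its changes were 0.77 and 0.74. HORVU0Hr1G003890 had 662, 232 and 782 in Karl at 7 d and 860, 2207 and 1424 at 14 d, and 670, 528 and 475 and then 1233 and 1565 in 10_11. Neither line overlapped, and its changes were 1.41 and 1.32. In 54 members the mean 14 d level of both lines was under 50 normalized counts.

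HORVU4Hr1G059390 was the member in which the early change differed most between the lines in favour of Karl. It had 143, 42.8 and 194 normalized counts in Karl at 7 d, 2018, 2005 and 2036 at 14 d and 774, 3247 and 504 at 21 d. In 10_11 it had 218, 188 and 193 at 7 d, 451 and 512 at 14 d, and 733, 1213 and 466 at 21 d. Groups of 7 d and 14 d did not overlap in either line, and the change was 3.94 in Karl and 1.25 in 10_11. The 3 Karl libraries of 14 d were nearly equal, while those of 21 d spread from 504 to 3247. At 14 d it was lower in 10_11 by a log2 fold change of -2.06 (SE 0.64), which did not pass the threshold (edgeR adjusted p = 0.0934).

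A pair of members with neighbouring serial numbers on chromosome 5, HORVU5Hr1G106550 and HORVU5Hr1G106610, varied together from library to library. HORVU5Hr1G106610 had 398, 187 and 416 normalized counts in Karl at 7 d, 284, 954 and 380 at 14 d and 599, 426 and 919 at 21 d. Corresponding 10_11 values were 323, 324 and 177 at 7 d, 816 and 1085 at 14 d, and 1521, 162 and 1388 at 21 d. HORVU5Hr1G106550 had 67.2, 36.1 and 90.5, then 49.9, 269 and 64.5, then 153, 105 and 156 in Karl, and 76.9, 71.0 and 42.0, then 146 and 214, then 271, 37.2 and 301 in 10_11. Both were high in Karl 14 d B and low in 10_11 21 d B, and both overlapped between 7 d and 14 d in Karl. Their deviations from the group means had a Pearson r of 0.966 over 17 libraries, which share the same depth and scaling, and the table has 2 genes between them. HORVU5Hr1G106810, 200 serial steps beyond HORVU5Hr1G106610, did not share this course (r = 0.137). Over all 4950 pairs of members the median r was 0.07, and 50 pairs, with 39 members in them, had 0.8 or more. Strong covariation was thus not limited to serial neighbours. Whether HORVU5Hr1G106550 and HORVU5Hr1G106610 have similar sequences was not tested, and if they do, reads may have been divided between them.

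Spread between replicates was larger in the members than in eligible genes as a whole. The median pooled SD was 0.42 on the log2 scale against 0.34, and 20 of the 100 members had 0.6 or more, against 9.82% of eligible genes. Deviations were shared among some members. The 20 members of largest SD were picked from these same values, so the shares below are a description. In the 20 members of largest SD, the library Karl 7 d 2 was the lowest of its group for 17 (85.0%), against 37.5% of the other 80 members and 39.5% of eligible genes. 10_11 7 d 3 was the lowest for 15 (75.0%), against 58.8% and 42.1%. Karl 14 d B was the highest for 11 (55.0%), against 26.3% and 35.2%. Both of these 7 d libraries lie on the side that enlarges a rise, which the rule favours. Without both of them the median rise was 0.94 in Karl and 0.92 in 10_11. Of the 100 genes 64 were then again among the 100 highest scores. For 53 members the smaller of the 2 early changes exceeded 2 pooled SDs. The rule chose members on that change, so this count is a description and no test. It was not taken over eligible genes.

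The members lay on all 7 chromosomes in proportions close to those of eligible genes. Chromosome 5 held 18 of the 100 (18.0%, against 16.1% of eligible genes), chromosome 2 17 (against 14.8%), and chromosome 4 15 (15.0%, against 13.0%). Chromosome 6, on which the lines are known to differ, held 11 (11.0%, against 11.5%). The lowest share relative to eligible genes was that of chromosome 1, with 10 members (10.0%, against 13.4%), and 2 members were unplaced.

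The library that the rule did not use allowed the members to be looked at in 1 further sample of 14 d. In the library labelled 10_11 14 d C the 100 genes summed to 19175 normalized counts, above all 6 libraries of 7 d and above 10_11 14 d A and B. On a scale from the 10_11 mean of 7 d (0) to that of 14 d (1), the median position of the members in this library was 1.17, with quartiles of 0.891 and 1.40, and 96 of 100 lay above 0.5. With the means of Karl the median was 1.02, with quartiles of 0.779 and 1.23, and 91 lay above 0.5. It exceeded all 6 libraries of 7 d in 88 members, against 20.7% of eligible genes. The 7 d values in these positions also chose the members, so the numbers are a description of 1 library. This library shares the code range of the other later libraries, so it does not separate leaf age from the difference between the sets. By genes that differ between the lines it resembles Karl, and in 58 members it was nearer to the Karl mean of 14 d than to the 10_11 mean (58.0%, against 54.4% of eligible genes).

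**Figure D4:**
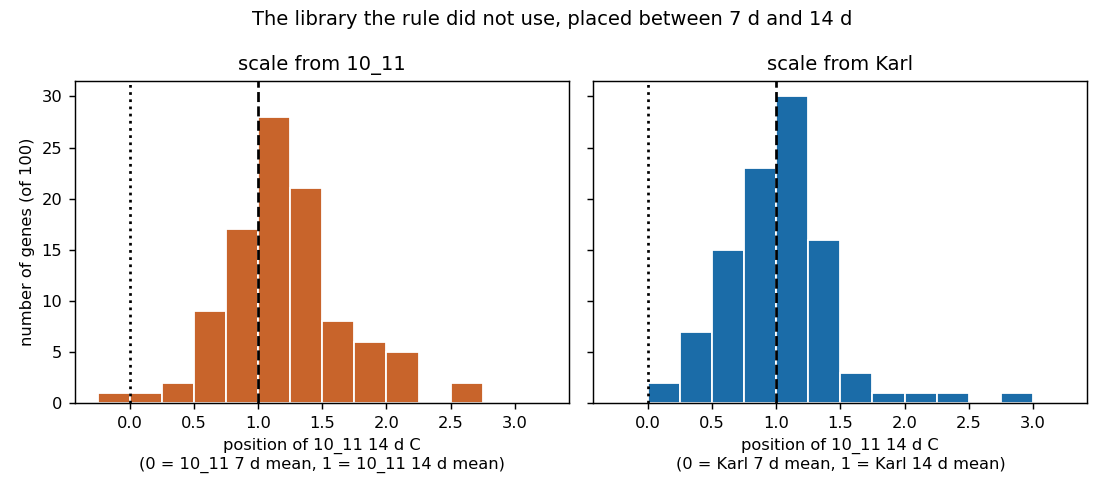
Position of the library labelled 10_11 14 d C for each of the 100 genes on a scale from the 7 d mean (0, dotted) to the 14 d mean (1, dashed) of 10_11 (left) and of Karl (right), with positions taken on the log2(normalized count + 5) scale and bars giving the number of genes per bin. Medians are 1.17 and 1.02, and 4 and 9 genes lie at or under 0.5.

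The offset between the lines is the measure that the rule did not use, since it compared days within a line. All 100 members passed the filter on low counts that left 10382 genes for this test. Averaged over the 3 days, 2 members were higher in 10_11 and 4 lower, 6 in all (edgeR's quasi-likelihood test with Benjamini-Hochberg adjustment over all genes, adjusted p under 0.05), against 1.16%, 1.13% and 2.28% of all genes tested. By single days 0 members were called at 7 d (0.414% of all genes), 3 at 14 d, all lower in 10_11 (3.00% of all genes, and 2.02% in that direction), and 0 at 21 d (1.42%). At an unadjusted p under 0.05 there were 3, 13 and 13 members at the 3 days and 23 in the mean, against 4.54%, 16.3%, 15.1% and 13.2% of all genes. DESeq2 called 0, 5 and 2 members at 7 d, 14 d and 21 d and 5 in the mean, against 0.360%, 3.04%, 2.25% and 2.41% of all genes. With the library labelled 10_11 14 d C included, edgeR called 0 at each day and 1 in the mean, against 0.0602%, 0.0501%, 1.01% and 1.29%. The count at 14 d fell from 3 to 1 without Karl 14 d A. Over all genes that run called 35 higher in 10_11 and 63 lower of 10039, against 101 and 210 of 10382. The count was 5 without 10_11 21 d B, beside 201 genes higher and 381 lower of 10324. At 21 d that run called 3 members, beside 179 genes higher and 192 lower. Without 10_11 7 d replicate 2 the count in the mean was 3, beside 89 and 83 of 10359 genes. The counts over all genes thus moved in the same direction. Leaving out 10_11 14 d A or B leaves 1 library in that group, so their count at 14 d is not given. Differences at single days share values with the day changes that chose the members. The median log2 fold change (10_11 against Karl) over the members was -0.15 at 7 d, -0.20 at 14 d, -0.13 at 21 d and -0.17 for the mean, against -0.01, -0.01, -0.0043 and -0.02 over all genes tested, and 68 of 100 members were below 0 in the mean. Single libraries moved these medians. At 7 d the median was -0.30 without 10_11 7 d replicate 2, -0.25 without 10_11 7 d replicate 1, -0.23 without Karl 7 d replicate 2, -0.10 without Karl 7 d replicate 3 and -0.08 without 10_11 7 d replicate 3. At 21 d it was -0.05 without 10_11 21 d B, and in the mean it ran from -0.22 to -0.13 when 1 library was left out. At 14 d it was -0.06 without 10_11 14 d A, -0.26 without 10_11 14 d B and -0.11 with the library labelled 10_11 14 d C included. In the authors' deposited table, which includes that library, the lines differed at an adjusted p under 0.05 in 0 members at 7 d (0.470% of all genes), 0 at 14 d (0.558%) and 1 at 21 d (2.01%), HORVU4Hr1G054850, named here because of that call, which was higher in 10_11 there by 1.07 on the log2 scale (adjusted p = 0.0420 in the authors' deposited table).

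Of the 6 members called in the mean of the days, HORVU7Hr1G099580 was lower in 10_11 on all days. It had 13.4, 6.76 and 20.7 normalized counts in Karl at 7 d, 44.8, 30.4 and 72.5 at 14 d and 25.8, 51.1 and 42.9 at 21 d, against 4.96, 3.09 and 4.20, then 11.0 and 13.2, then 16.6, 16.5 and 23.3 in 10_11. The lines did not overlap on any day. Its log2 fold change was -1.64 (SE 0.28, edgeR adjusted p = 0.00194) in the mean and -2.01 (SE 0.40, edgeR adjusted p = 0.0105) at 14 d. The call at 14 d was lost without 10_11 14 d A or B (edgeR adjusted p of 0.187 and 0.109), and both calls were lost with the library labelled 10_11 14 d C (0.238 at 14 d and 0.0769 in the mean). With thinned counts they were lost as well, with adjusted p of 0.151 and 0.192 and log2 fold changes of -5.91 and -2.82.

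HORVU7Hr1G074640 was also lower in 10_11. In Karl it had 16.8, 22.5 and 15.1 normalized counts at 7 d, 55.0, 29.3 and 54.1 at 14 d and 45.3, 31.1 and 31.1 at 21 d. In 10_11 it had 4.96, 7.72 and 4.20, then 18.3 and 21.8, then 39.96, 19.6 and 30.1. The lines were separated at 7 d and 14 d and overlapped at 21 d. Its log2 fold change in the mean was -1.002 (SE 0.23, edgeR adjusted p = 0.0209), and the call was lost without 10_11 7 d replicate 1 or 14 d A (0.0589 and 0.0773) and with thinned counts (0.521).

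HORVU5Hr1G010130 and HORVU5Hr1G115100 were called at 14 d as well as in the mean. HORVU5Hr1G010130 had 63.8, 85.6 and 96.1 normalized counts in Karl at 7 d, 602, 309 and 447 at 14 d and 281, 292 and 219 at 21 d, and 44.7, 69.5 and 12.6, then 63.3 and 153, then 152, 229 and 117 in 10_11. The lines were separated at 14 d and overlapped at 7 d and 21 d. At 14 d its log2 fold change was -2.07 (SE 0.44, edgeR adjusted p = 0.0173) and in the mean -1.19 (SE 0.24, edgeR adjusted p = 0.00859). The 14 d call was lost without Karl 14 d A or 10_11 14 d A (0.0723 and 0.260) and with thinned counts, at a log2 fold change of -2.13 (edgeR adjusted p = 0.0525). With the library labelled 10_11 14 d C, which held 514 normalized counts, the log2 fold changes were -0.90 and -0.80 (0.475 and 0.313).

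HORVU5Hr1G115100 had 36.9, 36.1 and 39.6 normalized counts in Karl at 7 d, 381, 223 and 316 at 14 d and 171, 306 and 92.7 at 21 d. The 10_11 counts were 27.3, 26.2 and 8.41, then 41.3 and 69.3, then 65.5, 202 and 39.1. The lines were separated at 7 d and 14 d and overlapped at 21 d. Its log2 fold change was -2.48 (SE 0.57, edgeR adjusted p = 0.0253) at 14 d and -1.38 (SE 0.33, edgeR adjusted p = 0.0281) in the mean. Leaving out Karl 14 d A or C or 10_11 14 d A or B ended the call at 14 d (0.0927, 0.0703, 0.277 and 0.152). In the mean the call was lost without any 1 of 10 libraries, with edgeR adjusted p values between 0.0507 and 0.113. Both calls were also lost with the library labelled 10_11 14 d C included (0.155 at 14 d and 0.140 in the mean) and with thinned counts (0.0665 and 0.127). The 10 libraries were Karl 7 d replicates 1 and 3, Karl 14 d A and C, Karl 21 d B, 10_11 7 d replicates 1, 2 and 3, 10_11 14 d A and 10_11 21 d A.

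The 2 members higher in 10_11 were HORVU5Hr1G000820 and HORVU5Hr1G109730. HORVU5Hr1G000820 had 80.6, 22.5 and 54.7 normalized counts in Karl at 7 d, 115, 143 and 92.4 at 14 d and 99.1, 107 and 69.2 at 21 d, and 109, 83.4 and 29.4, then 266 and 288, then 174, 215 and 208 in 10_11. The lines overlapped at 7 d and were separated at 14 d and 21 d. Its log2 fold change in the mean was 0.96 (SE 0.21, edgeR adjusted p = 0.0180). The call was lost without 10_11 7 d replicate 1 or 2 or 14 d B, at edgeR adjusted p values between 0.0538 and 0.0586. Including the library labelled 10_11 14 d C also ended it (0.0579), as did thinned counts (0.297).

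HORVU5Hr1G109730 was among the lowest members, with 3.36, 2.25 and 1.88 normalized counts in Karl at 7 d, 11.3, 13.3 and 7.96 at 14 d and 18.7, 14.2 and 10.4 at 21 d. In 10_11 it had 7.44, 13.9 and 8.41, then 22.0 and 22.4, then 18.9, 17.5 and 15.1. The lines were separated at 7 d and 14 d and overlapped at 21 d. Its log2 fold change in the mean was 1.08 (SE 0.24, edgeR adjusted p = 0.0162), and the call was lost without 10_11 7 d replicate 2 (0.175), with DESeq2 (DESeq2 adjusted p = 0.0542) and with the library labelled 10_11 14 d C included (0.0957). A replicate block gave an adjusted p of 0.0830 in edgeR. With thinned counts its log2 fold change was 0.28 (edgeR adjusted p = 0.968). On the log2 scale, at 5 of these 6 members the library labelled 10_11 14 d C lay nearer to the Karl mean of 14 d than to the 10_11 mean. HORVU7Hr1G074640 was the exception, and over all eligible genes the share was 54.4%. The same 14 d means, taken without that library, entered the calls of these 6, so the count is a description.

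**Figure D5:**
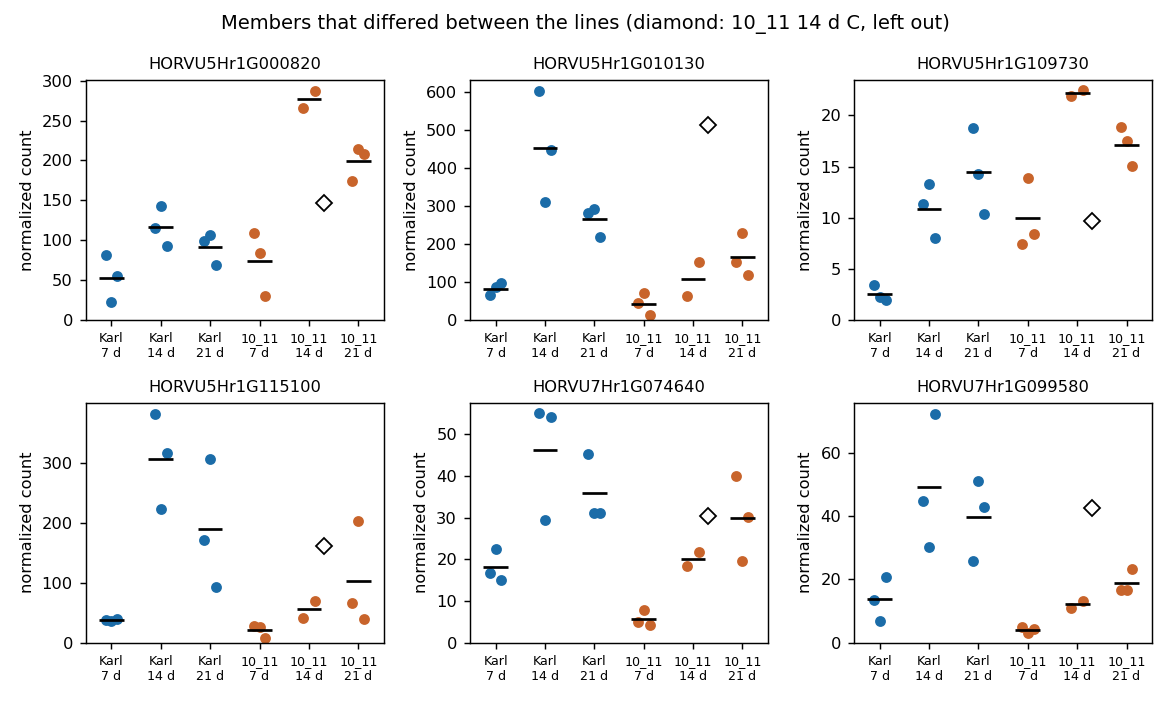
Normalized counts per library of the 6 members called between the lines, with 1 point per library (Karl blue, 10_11 orange), bars for group means and an open diamond for the library labelled 10_11 14 d C. HORVU5Hr1G000820 and HORVU5Hr1G109730 are higher in 10_11 and the other 4 lower, and on the log2 scale, unlike the linear axis drawn here, the diamond is nearer to the Karl mean of 14 d in 5 of the 6. The 14 d means without that library entered these calls, so the count of 5 is a description.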

How the data were processed

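The submitters' processing notes name STAR 2.4.2a, HTSeq, DESeq2, bcl2fastq and cutadapt. Which build, gene models and collapsing of molecular identifiers applied was not given in the sources used here. The deposited table holds raw counts per gene, counts that the authors divided by 1 size factor per library (a scaled signal), regularized log2 values and, for the authors' own comparisons, log2 fold changes with adjusted p-values. None of the identifiers matched the reference gene table, so lists by function were not applied.

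Members follow the authors' normalized counts; the members and lists were chosen with earlier results of these data known. Raw counts of 17 libraries, without 10_11 14 d C, were fitted with edgeR 4.0.16 in R 4.3.3 (filterByExpr, TMM, quasi-likelihood test, two-sided, 1 mean for each line and day, 11 residual degrees of freedom); the standard error is the log2 fold change over the square root of F. Fits were tested on simulated data. DESeq2 1.42.0 was an alternative. Named are the 20 highest scores, members called between the lines, the 5 highest 14 d levels, serial neighbours within 200, and 5 ranks on each side of the limit; others are marked. The labels call the samples of a group independent without saying whether they share pots. Totals of 353982 to 3231258 counts per library limit the precision of low genes at 7 d, and intervals were not computed.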

Additional observations from a re-analysis of the deposited data

Results flagged for a closer look

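The library labelled 10_11 14 d C stood out because it was outside the comparisons and held 19175 normalized counts of the 100 genes, above the 4369 to 8520 of the 6 libraries of 7 d. Apart from the libraries and genes described above, groups of 3 libraries were not examined for single outlying values.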

How the results depend on the processing

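The membership depends on the processing. Of the 100 genes 56 were again among the first 100 with a minimum group mean of 50, at which 44 members are not eligible, 60 with the library labelled 10_11 14 d C included, 64 without Karl 7 d 2 and 10_11 7 d 3 (added after the data were seen) and 24 with every library thinned to the lowest total and scaled by totals, which keeps fewer counts per gene. Without each library in turn 68 to 90 were shared. The median rise of the 100 genes, whose direction their choice fixes, was 0.94 to 1.09 in Karl and 0.88 to 1.13 in 10_11 when 1 library was left out, 1.39 in both lines with thinned counts, 1.34 and 1.29 with library totals alone, and 0.72 and 0.70 with regularized log2 values. Library totals alone and regularized values were also added later and shared 76 and 79 genes. The count of members called between the lines was 5 at 14 d with DESeq2 and with the libraries of 14 d alone. That last run called 238 genes higher in 10_11 and 418 lower of 10228. Without each library in turn, apart from 10_11 14 d A and B, which leave 1 library in that group, it was 1 to 5. It was 0 with thinned counts (17 genes higher and 30 lower of 6603) and with the library labelled 10_11 14 d C included. At 21 d it was 2 with DESeq2 and 0 to 3 without each library. In the mean of the days it was 1 with that library included and with thinned counts, and 3 to 8 without each library. At 7 d it was 0 in every alternative run. With the libraries of 7 d alone, however, only 48 members passed the filter on low counts. With thinned counts 91 members passed it, for each day and the mean. The cause of these shifts was not tested, apart from the fewer counts and fewer libraries named. A replicate block, fitted although same-numbered libraries did not deviate together on every day, called 0, 4, 0 and 5 members at 7 d, 14 d, 21 d and in the mean. Over all 10382 genes it called 17, 70, 75 and 102 higher in 10_11 and 21, 254, 57 and 122 lower. Without 10_11 14 d A or B that group has 1 library, assumed to vary like the others. Depth limits most what is said of members with few counts at 7 d.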
